A study of Mus musculus with 16 samples.

Results

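The visual cycle genes of the retinal pigment epithelium (RPE) and the carriers that bring vitamin A to it were followed in eyes of nm3342 mutant and wild-type mice. The 9 genes are Rpe65, Lrat, Rdh5, Rdh10, Rgr, Rrh, Rlbp1, Stra6 and Ttr. They were found by the RefSeq accession of each non-control probe, which gave 10 probes of the 55681 on the array and 9 genes of the 20660 that the probes name. Rrh had 2 probes and each of the others 1. RNA of retina with RPE was hybridised to 16 single-colour Agilent arrays, 4 per group. The groups were nm3342 mutants at 1 year (P365 in the labels), wild types at 1 year, nm3342 mutants at 1 month (P30) and wild types at 1 month. Mutants and wild types both carry the strain background C57Bl/6J, are labelled male, and received no treatment named in the labels. The labels do not name the mutated gene, and the title of the series puts the mutant forward as a possible mouse model of detachment of the retina by fluid. Since retina and RPE of both eyes were pooled, fewer RPE cells in a sample and less RNA per RPE cell cannot be told apart.

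In the visual cycle, light turns the cis form of retinal bound to rod and cone opsins into the trans form, and the RPE turns it back. Vitamin A reaches the RPE from the blood on a complex of retinol-binding protein and transthyretin (Ttr) and enters through the receptor Stra6. In the RPE it is stored as an ester by Lrat, isomerised by Rpe65 and oxidised to cis-retinal by Rdh5, while Rlbp1 (CRALBP) holds the cis forms. Rlbp1 is also made by Müller glia, and Ttr also by liver and choroid plexus.

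All 10 probes were well above background on all 16 arrays, and none was saturated. A level is the log2 processed signal minus the array's 75th percentile of it, so 0 stands for that percentile. A gene was called where its Benjamini-Hochberg adjusted p from limma, over the 19028 genes tested, was under 0.05. Between 82.1% and 89.6% of each array's spots, controls left out, were well above background. Xist and the Y-linked gene Ddx3y did not match the male label on 3 arrays, which are mutant replicates 2 and 3 at 1 month and mutant replicate 1 at 1 year. The arrays lay on 2 slides of 8 arrays, with 2 of every group on each. Of 20 further RPE markers, 19 were well above background on all 16 arrays, while Best1 was so on 1 array and was not tested. Since most spots of every array were well above background, this does not test the RPE label. The mean level of 8 lens genes differed widely between arrays, with -1.40 to 4.70 in mutants and -3.06 to 1.09 in wild types at 1 year, and 0.90 to 5.67 in mutants and 4.04 to 4.66 in wild types at 1 month.

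**Figure D1:**
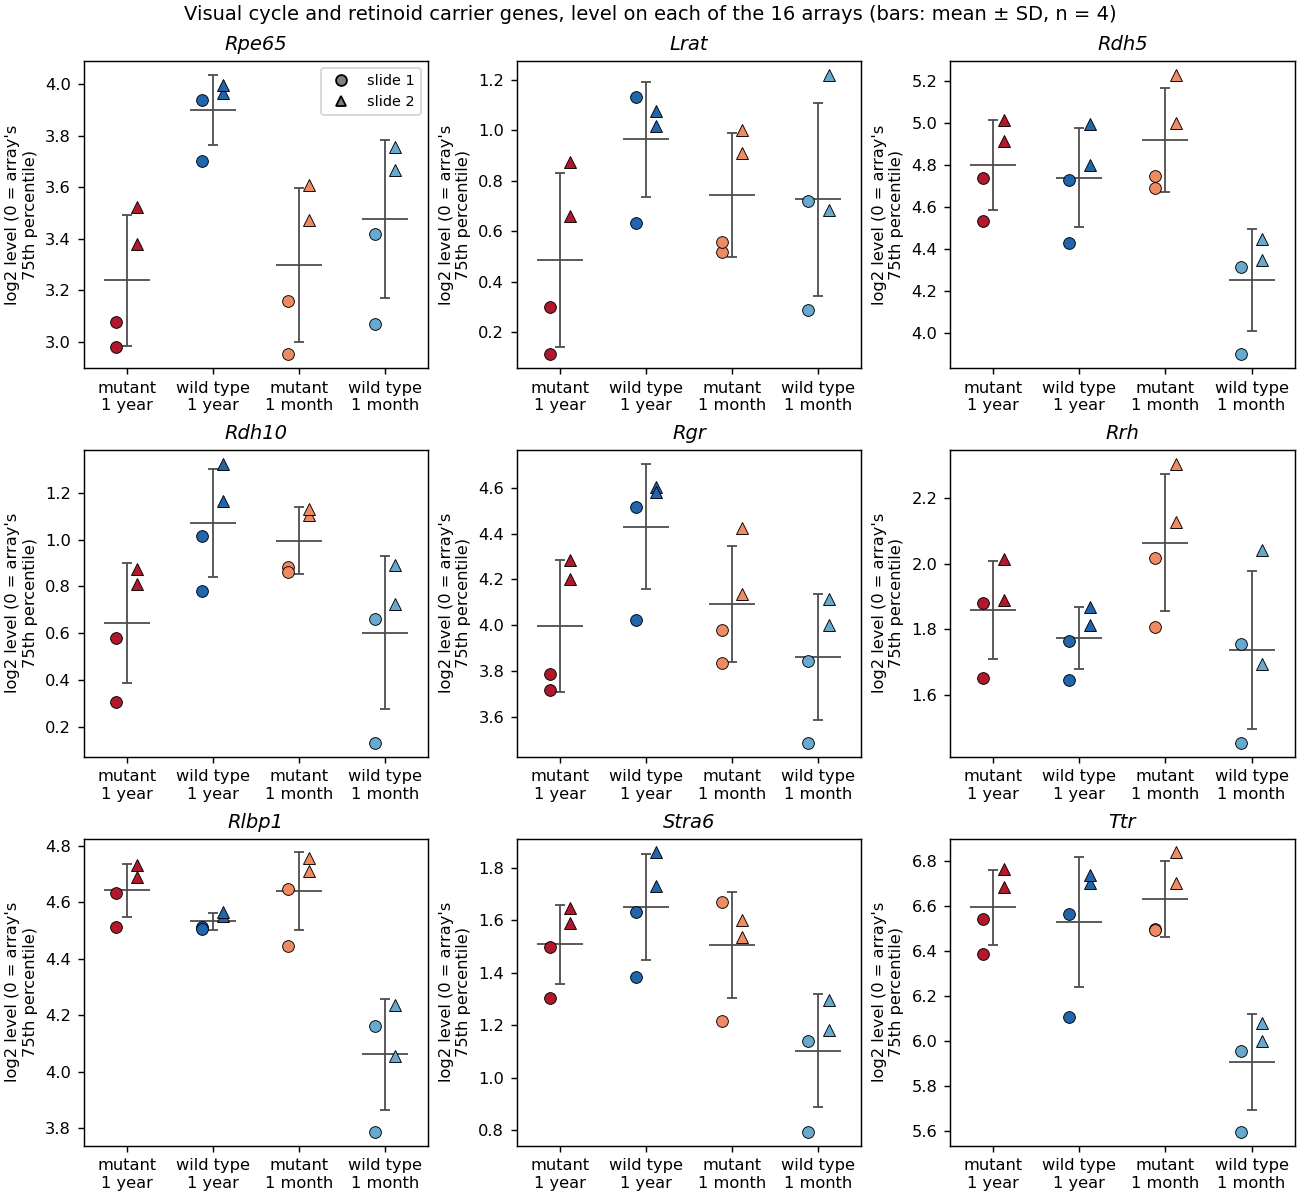
Level of each of the 9 genes on each array (y axis, log2 relative to the array's 75th percentile, a separate range for each gene) in the 4 groups (x axis); circles are arrays on slide 1, triangles on slide 2, and bars show mean ± SD with 4 arrays per group. For Rdh5, Rlbp1 and Ttr the 1-month mutants lie above all 1-month wild types, and for Rpe65 the 1-year mutants lie below all 1-year wild types.

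At 1 month, Rdh5, Rlbp1 and Ttr were higher in mutants than in wild types, by 1.49-fold to 1.65-fold, while Rpe65 and Lrat, at the centre of the cycle, were not called in either direction. Called genes made up 3 of the 9 members, all higher, against 2.67% of all genes tested (1.98% called higher). The 4 mutant arrays lay above the 4 wild-type arrays for the same 3 genes, against 8.51% of all genes whose groups did not overlap in either direction. The median change of the 9 genes was 0.39 on the log2 scale, against 0.02 over all genes, and 8 of the 9 changes were positive.

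Rdh5, the dehydrogenase that makes cis-retinal, had levels of 5.23, 4.69, 5.0 and 4.75 in mutants, against 3.90, 4.31, 4.35 and 4.45 in wild types at 1 month. The lowest mutant array was above the highest wild-type array. Rdh5 rose by 0.66 ± 0.16 on the log2 scale (1.58-fold, 95% confidence interval 1.25 to 2.01, limma adjusted p = 0.0421). Rdh10, a retinol dehydrogenase that also feeds retinoic acid synthesis, had levels of 1.11, 0.88, 1.13 and 0.86 in mutants, against 0.13, 0.66, 0.73 and 0.89 in wild types. Its groups overlapped through wild-type replicate 4, and the change of 0.39 ± 0.17 was not called (limma adjusted p = 0.281).

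Rpe65, the isomerase of the cycle, had levels of 3.61, 2.95, 3.47 and 3.16 in 1-month mutants, against 3.07, 3.42, 3.67 and 3.76 in 1-month wild types. The groups overlapped over most of their range. The change was -0.18 ± 0.17 (limma adjusted p = 0.684), and its interval ran down to 0.683-fold and up to 1.14-fold. Lrat, which esterifies retinol for storage, changed by 0.02 ± 0.20, with wild-type arrays from 0.29 to 1.22 spanning all 4 mutant arrays.

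Rlbp1 had levels of 4.76, 4.65, 4.71 and 4.45 in 1-month mutants, against 3.79, 4.16, 4.06 and 4.24 in 1-month wild types. Every mutant array was above every wild-type array, and Rlbp1 rose by 0.58 ± 0.10 (1.49-fold, 95% confidence interval 1.29 to 1.72, limma adjusted p = 0.00613). Ttr had levels of 6.84, 6.49, 6.70 and 6.49 in mutants, against 5.60, 5.95, 6.00 and 6.08 in wild types. The groups did not overlap, and Ttr rose by 0.72 ± 0.15 (1.65-fold, 95% confidence interval 1.33 to 2.06, limma adjusted p = 0.018). Stra6, the receptor that takes up retinol from its carrier, was 1.51 ± 0.20 in mutants and 1.1 ± 0.22 in wild types (SD, n = 4), a change of 0.40 ± 0.13 that was not called (limma adjusted p = 0.16).

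The opsin-like members were not called at 1 month. Rgr, a light-driven retinal isomerase of RPE and Müller glia, was 4.09 ± 0.25 in mutants and 3.86 ± 0.27 in wild types (SD, n = 4), a change of 0.23 ± 0.18. Rrh, which encodes peropsin of the RPE, changed by 0.33 ± 0.13 on the probe with the higher mean level (limma adjusted p = 0.232) and by 0.43 ± 0.18 on its other probe. Both Rrh probes thus gave a change of the same sign, and neither was called.

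The arrays that did not match their labelled sex touch the 1-month comparison, since 2 of them are mutants of that age. Without the 3 arrays none of the 9 genes was called, against 0.699% of all genes. The changes were then 0.74 ± 0.21 for Rdh5 (limma adjusted p = 0.187), 0.54 ± 0.13 for Rlbp1 (adjusted p = 0.11) and 0.76 ± 0.20 for Ttr (adjusted p = 0.146), so the sizes were close to those with all arrays. With single arrays left out in turn, Rlbp1 was called in all 16 fits. Ttr lost its call at 1 month when mutant replicate 1, mutant replicate 3 or wild-type replicate 1 of that age was left out (largest adjusted p = 0.0715). Rdh5 lost its call without those 3 arrays, wild-type replicates 2 or 3 at 1 month, mutant replicates 1 or 3 at 1 year, or wild-type replicates 3 or 4 at 1 year (largest adjusted p = 0.141).

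Promoter windows of Rdh5 and Rlbp1 are shown because these genes were called higher in 1-month mutants, and that of Rpe65 because it moved apart from them. Each runs 5′ to 3′ on the gene's strand, from 250 bases before to 50 after the RefSeq start, in build GRCm38.p6. Capitals mark GGATTA or its reverse complement TAATCC, the core read by the homeodomain factors OTX2 and CRX, and CACATG or CATGTG, an E-box form read by MITF. The windows are chr3:159598931-159599230 on the plus strand for Rpe65, chr10:128919248-128919547 on the minus strand for Rdh5 and chr7:79386978-79387277 on the minus strand for Rlbp1.
Rpe65: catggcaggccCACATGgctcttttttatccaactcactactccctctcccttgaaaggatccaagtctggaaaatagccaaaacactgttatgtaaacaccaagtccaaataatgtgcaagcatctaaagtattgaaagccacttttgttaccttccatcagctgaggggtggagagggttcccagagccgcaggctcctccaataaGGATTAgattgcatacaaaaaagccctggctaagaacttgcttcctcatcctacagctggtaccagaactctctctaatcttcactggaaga
Rdh5: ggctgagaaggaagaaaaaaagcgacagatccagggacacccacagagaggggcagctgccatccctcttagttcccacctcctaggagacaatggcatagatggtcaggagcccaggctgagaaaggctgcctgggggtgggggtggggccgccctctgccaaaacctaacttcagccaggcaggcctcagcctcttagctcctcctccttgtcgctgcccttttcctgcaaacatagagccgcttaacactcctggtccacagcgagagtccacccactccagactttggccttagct
Rlbp1: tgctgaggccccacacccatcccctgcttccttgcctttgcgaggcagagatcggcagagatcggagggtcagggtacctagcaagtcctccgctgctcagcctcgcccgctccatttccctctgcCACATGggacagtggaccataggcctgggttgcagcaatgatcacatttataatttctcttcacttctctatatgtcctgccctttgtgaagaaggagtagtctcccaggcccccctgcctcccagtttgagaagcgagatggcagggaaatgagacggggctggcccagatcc
Rpe65 held GGATTA with its first base 42 bases before the start and CACATG 239 bases before it. Rlbp1 held CACATG 124 bases before the start, and Rdh5 held neither set of letters in this window. Windows of 7 members were searched. Ttr, also called higher in 1-month mutants, was left out of the search, and for Rdh10 no window was at hand. The 7 genes had 10 windows, with several for Stra6. Of the 7 genes, 2 held GGATTA and 3 held CACATG on either strand, with no overlap between motifs. Counted by window, as in the shares below, these were 2 of 10 and 3 of 10. Rgr was the other gene with both. Of all 32851 promoter windows of this length, 7.06% held GGATTA and 14.2% held CACATG on either strand. A match describes the letters of the window only.

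At 1 year the picture between genotypes differed by gene. Rpe65, Lrat, Rdh10 and Rgr had lower mean levels in mutants than in wild types, with log2 changes of -0.66 to -0.43, and the means of Rdh5, Rrh, Rlbp1 and Ttr differed by 0.06 to 0.11. None of the 9 genes was called by limma over all genes, against 0.867% of all genes called. At an unadjusted p under 0.05 there were 4 members, all lower in mutants, against 11.3% of all genes in either direction. The median change of the 9 genes was -0.14, against -0.01 over all genes.

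Rpe65 had levels of 3.38, 2.98, 3.08 and 3.52 in 1-year mutants, against 3.97, 3.70, 3.94 and 4.00 in 1-year wild types. All mutant arrays were below all wild-type arrays, the 1 member for which the groups did not overlap, against 7.85% of all genes. Some RPE markers outside the list lay likewise, as given with the marker lists. The change of Rpe65, -0.66 ± 0.17 (0.633-fold, 95% confidence interval 0.489 to 0.819), was not called (limma adjusted p = 0.1). With slide as a block, Rpe65 was called lower (-0.66 ± 0.10, adjusted p = 0.00644), the 1 member called in that fit, against 0.809% of all genes, while at 1 month the same fit called the same 3 members, against 2.56%. Without the 3 arrays of unmatched sex the change was -0.71 ± 0.19 (adjusted p = 0.189), and no member was called, against 0.41% of all genes.

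Lrat had levels of 0.87, 0.11, 0.30 and 0.66 in 1-year mutants, against 1.02, 0.63, 1.13 and 1.08 in 1-year wild types. Of the mutant arrays, 2 were above the lowest wild-type array and 2 below all wild-type arrays, and the change was -0.48 ± 0.20 (limma adjusted p = 0.38). Rdh10 changed by -0.43 ± 0.17 (adjusted p = 0.324), with 0.31 to 0.87 in mutants and 0.78 to 1.32 in wild types. Rgr changed by -0.44 ± 0.18 (adjusted p = 0.37), with 3.72 to 4.28 in mutants and 4.02 to 4.61 in wild types.

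The 3 genes called at 1 month overlapped between genotypes at 1 year. Rdh5 averaged 4.80 ± 0.21 in mutants and 4.74 ± 0.24 in wild types (SD, n = 4), and the interval of the fold ran from 0.824 to 1.32. Rlbp1 averaged 4.64 ± 0.10 in mutants and 4.53 ± 0.03 in wild types, with an interval of the fold from 0.933 to 1.25. Ttr averaged 6.59 ± 0.17 in mutants and 6.53 ± 0.29 in wild types, with an interval of the fold from 0.84 to 1.3. Stra6 changed by -0.14 ± 0.13 and Rrh by 0.09 ± 0.13.

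**Figure D2:**
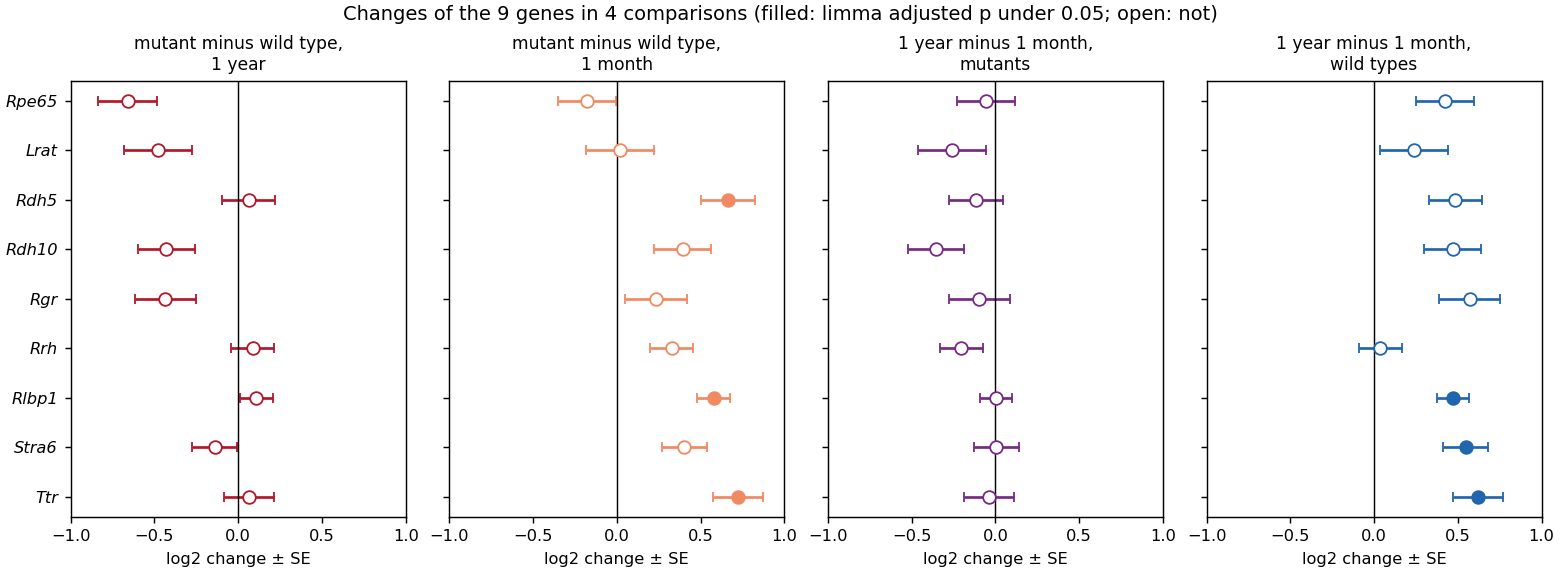
Log2 change ± SE (x axis) of each gene (y axis) from limma in 4 comparisons, with filled points for genes called at an adjusted p under 0.05 and open points for the others. Rdh5, Rlbp1 and Ttr are called between genotypes at 1 month, none at 1 year, none with age in mutants, and Rlbp1, Stra6 and Ttr with age in wild types.

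The change of the genotype effect with age was tested as the 1-year effect minus the 1-month effect. It was negative for all 9 genes, from -0.82 ± 0.24 for Rdh10 (limma adjusted p = 0.168) to -0.24 ± 0.18 for Rrh (adjusted p = 0.733). No member was called, against 0.405% of all genes, and 6 had an unadjusted p under 0.05, against 10.8% of all genes. With slide as a block, Rdh10 was called (-0.82 ± 0.15, adjusted p = 0.0343), 1 of the 9 members, against 0.541% of all genes. Of the RPE markers Tyrp1 was called for this difference (-1.58 ± 0.29, adjusted p = 0.0312), of the choroid list Col3a1 (-2.13 ± 0.30) and of the microglia list Adgre1 (-1.29 ± 0.24). The same 9 values are also the age change of mutants minus that of wild types.

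With age, Rlbp1, Stra6 and Ttr were higher at 1 year than at 1 month in wild types, and no member was called with age in mutants. In wild types 3 of the 9 genes were called, all higher, against 12.4% of all genes (7.27% called higher), and the groups did not overlap for the same 3 genes, against 18.9% of all genes. At an unadjusted p under 0.05 there were 7 members, against 26.4% of all genes. All 9 changes were positive, with a median of 0.47, against -0.03 over all genes. The wild-type comparison shares its 1-month arrays with the 1-month genotype comparison, so the 2 sets of changes are not independent.

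Rlbp1 had levels of 4.55, 4.51, 4.51 and 4.57 in 1-year wild types, against 3.79, 4.16, 4.06 and 4.24 in 1-month wild types. The 1-year arrays lay close together and above all 1-month arrays, and Rlbp1 rose by 0.47 ± 0.10 (1.39-fold, limma adjusted p = 0.00536). Stra6 had levels of 1.86, 1.38, 1.63 and 1.73 in 1-year wild types, against 0.80, 1.14, 1.30 and 1.18 in 1-month wild types. It rose by 0.55 ± 0.13 (1.46-fold, adjusted p = 0.0154), with no overlap, and lost its call without 1-year wild-type replicate 1 (adjusted p = 0.0583).

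Ttr had levels of 6.70, 6.11, 6.56 and 6.74 in 1-year wild types, against 5.60, 5.95, 6.00 and 6.08 in 1-month wild types. The lowest 1-year array was just above the highest 1-month array, and Ttr rose by 0.62 ± 0.15 (1.54-fold, adjusted p = 0.0128). Changes of 0.57 ± 0.18 for Rgr (adjusted p = 0.0569), 0.49 ± 0.16 for Rdh5 (adjusted p = 0.0623), 0.47 ± 0.17 for Rdh10 (adjusted p = 0.0882) and 0.42 ± 0.17 for Rpe65 (adjusted p = 0.136) were not called. With slide as a block these 4 were called too, which made 7 of the 9 members, against 12.2% of all genes. Lrat (0.24 ± 0.20) and Rrh (0.04 ± 0.13) were not called in either fit. On slide 1 alone none of the 9 was called, against 0.988% of all genes, and on slide 2 alone Ttr was, 1 of 9, against 3.87%. Without the 3 arrays of unmatched sex, all of them mutants, 3 members were called, against 9.51% of all genes.

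Marker lists of several cell types also differed between 1-year and 1-month wild types. Of the 19 RPE markers tested, 4 were higher at 1 year, Tyrp1 (1.2 ± 0.20), Mitf (1.02 ± 0.19), Cdh3 (0.99 ± 0.14) and Krt8 (0.82 ± 0.22), and the mean of the list per array ran from 2.19 to 2.41 at 1 year and from 1.78 to 2.10 at 1 month. Of the 12 choroid melanocyte, endothelium and stroma genes, Lum (1.81), Dcn (0.88), Sox10 (0.59) and Plvap (0.52) were higher, with array means of 1.01 to 1.43 at 1 year and 0.63 to 0.92 at 1 month. Of the 9 microglia and macrophage genes, Tyrobp (2.41), Adgre1 (2.32), Aif1 (1.44), C1qa (1.42) and Csf1r (0.56) were higher, with array means of 0.53 to 1.1 at 1 year and -0.32 to -0.17 at 1 month. Of 12 Müller glia markers Apoe (0.47) and Sox9 (0.36) were higher, as was Trf (1.1) of the liver list, and 5 of 8 lens genes were lower. Of 10 ciliary body and iris markers 2 were higher and 1 lower, with array means of 1.31 to 1.64 at 1 year and 0.96 to 1.35 at 1 month. The RPE list was tested as a covariate, as given with the genotype fits, and the part of the other lists was not tested.

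In mutants the 9 changes with age ran from -0.35 ± 0.17 for Rdh10 (limma adjusted p = 0.248) to 0.00 ± 0.13 for Stra6, with a median of -0.10, against -0.05 over all genes. None was called, against 6.67% of all genes, and none had an unadjusted p under 0.05, against 21% of all genes. The groups overlapped for all 9 genes, while 13.8% of all genes had groups apart. With slide as a block again none was called, against 6.47% of all genes. Of the 19 RPE markers, Pmel (-0.80 ± 0.22) and Tyr (-0.47 ± 0.12) were lower in 1-year than in 1-month mutants. Rpe65 averaged 3.24 ± 0.25 in 1-year mutants and 3.30 ± 0.30 in 1-month mutants, and Ttr 6.59 ± 0.17 in 1-year mutants and 6.63 ± 0.17 in 1-month mutants (SD, n = 4).

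By group mean, Rpe65, Lrat, Rdh10, Rgr and Stra6 each had their highest group mean in 1-year wild types. Rdh5, Rrh and Ttr had theirs in 1-month mutants, and Rlbp1 in 1-year mutants. The 1-month wild types had the lowest mean for Rdh5, Rdh10, Rgr, Rrh, Rlbp1, Stra6 and Ttr, and the 1-year mutants for Rpe65 and Lrat. Neighbouring groups in these orders overlapped except at the step between 1-year and 1-month wild types for Rlbp1 and Ttr.

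The 9 genes also shared a difference that no label gives. Each was higher on slide 2 than on slide 1, and in each of the 4 groups, a comparison added after the levels had been seen. The difference ran from 0.14 ± 0.06 for Rlbp1 to 0.40 ± 0.10 for Lrat, with a median of 0.33, against 0.19 over the 19 further RPE markers tested and 0.01 over all genes. Only Rpe65 was called between slides (0.38 ± 0.07, limma adjusted p = 0.0423), 1 of 9, against 0.347% of all genes. Among the RPE markers none was called, and 15 of 19 were higher on slide 2, as were 10147 of the 19028 genes tested. How many genes were higher on slide 2 in each of the 4 groups was not computed.

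Each group had 2 arrays on each slide, so the group means hold this difference equally. It entered the spread within groups: the SD of Rpe65 in 1-month mutants was 0.30, and the mutant arrays on slide 2 were at 3.61 and 3.47, against 2.95 and 3.16 on slide 1. On each slide alone, mutants minus wild types at 1 month were 0.61 and 0.72 for Rdh5, 0.57 and 0.59 for Rlbp1 and 0.72 and 0.73 for Ttr, on slides 1 and 2 in that order. At 1 year, Rpe65 was lower in mutants by -0.79 on slide 1 and by -0.53 on slide 2, although with 2 arrays per group on a slide no member was called there, against 0.0526% of all genes on slide 1 and 0.0683% on slide 2. At 1 month likewise none was called, against 0.00526% and 0.0893% of all genes in the same order.

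**Figure D3:**
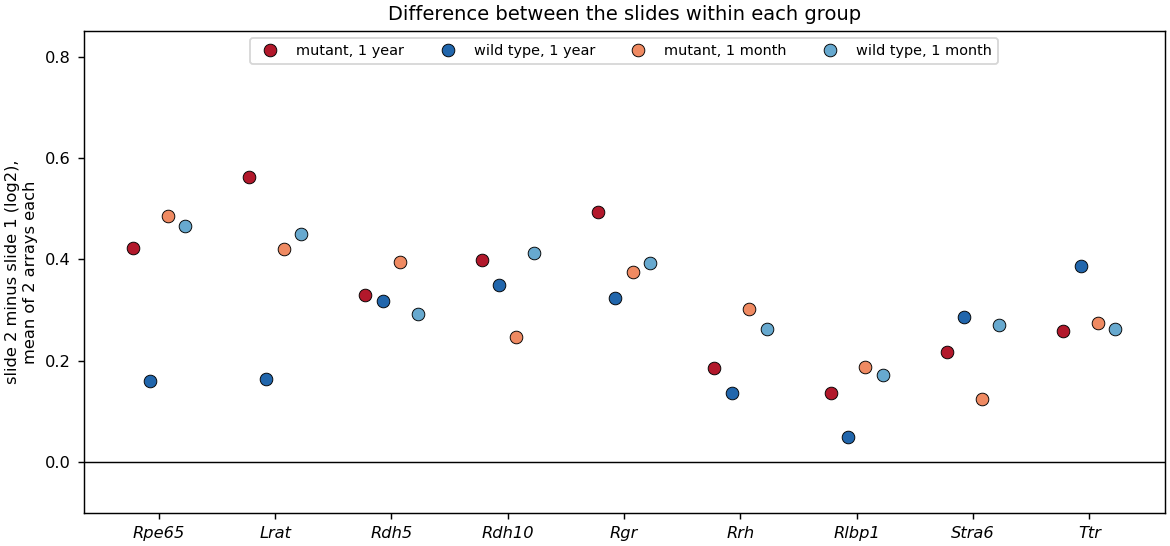
Mean level on slide 2 minus mean level on slide 1 (y axis, log2, 2 arrays on each side) for each gene (x axis) within each of the 4 groups (colours). All 36 differences are above 0, from 0.05 for Rlbp1 in 1-year wild types to 0.56 for Lrat in 1-year mutants.

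Some other RPE genes were also higher in 1-month mutants. Of the 19 RPE markers tested, 5 were called higher and none lower: the melanosome genes Pmel (0.94 ± 0.22, limma adjusted p = 0.035), Tyrp1 (0.83 ± 0.20) and Tyr (0.52 ± 0.12), the lactate transporter Slc16a8 (0.80 ± 0.16) and P-cadherin Cdh3 (0.70 ± 0.14). The other 14 were not called, 6 of the 19 changes were negative, with the tight-junction gene Cldn19 (-0.53 ± 0.18) furthest below 0, and the median was 0.47. Choroid melanocytes also express the pigment genes among these markers. The melanocyte markers Kit (0.42 ± 0.29), Ednrb (0.40 ± 0.15) and Sox10 (0.26 ± 0.11) had positive changes and were not called. For Kit all mutant arrays were above all wild-type arrays, against 8.51% of all genes without overlap in either direction. The mean of the 19 RPE markers per array ran from 2.12 to 2.45 in mutants, above the 1.78 to 2.10 of wild types. Markers of choroid melanocytes, endothelium and stroma had 3 of 12 genes higher at 1 month, the matrix genes Col3a1 (2.35) and Lum (1.17) and the endothelial receptor Kdr (0.68, log2 changes), with array means of 1.30 to 1.49 in mutants and 0.63 to 0.92 in wild types. Markers of microglia and macrophages had 4 of 9 higher, Adgre1 (1.09), Aif1 (1.03), Csf1r (0.73) and C1qa (0.55), with array means of 0.22 to 0.43 in mutants and -0.32 to -0.17 in wild types. The part of the last 2 lists in the members' changes was not tested.

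At 1 year Kdr (0.71 ± 0.09) of the choroid list and Cx3cr1 (0.89 ± 0.19) of the microglia list were higher in mutants. None of the RPE markers was called, their median was -0.10, and their mean per array ran from 1.94 to 2.30 in mutants and from 2.19 to 2.41 in wild types. Like Rpe65, Tyrp1 (-0.75 ± 0.20), Enpp2 (-0.57 ± 0.16), Pmel (-0.55 ± 0.22) and Dct (-0.48 ± 0.18) had all mutant arrays below all wild-type arrays. No RPE marker had them all above, and 7.85% of all genes did not overlap in either direction. The melanocyte markers Ednrb (-0.45 ± 0.15) and Sox10 (-0.42 ± 0.11) were below throughout too, while Kit (0.30 ± 0.29) overlapped. For Ttr, which the liver also makes, the liver genes Alb and Fgb were well above background on 3 arrays each and were not tested. Of the other liver genes Trf, which retina and RPE also express, was 0.97 ± 0.16 higher in 1-month mutants (limma adjusted p = 0.00531), and apart from Ttr itself no other was called. Of 10 choroid plexus markers, Sostdc1 was higher in 1-month mutants (0.58 ± 0.11) and Kl lower (-0.75 ± 0.16). Of 10 ciliary body and iris markers, 1 was higher in 1-month mutants, Cdh3, which is also in the RPE list, and none was called at 1 year. For Rlbp1 and Rgr, which Müller glia share, 1 of 12 Müller markers was higher in mutants at 1 month, Abca8a (0.57 ± 0.14), and 1 at 1 year, Crym (0.91 ± 0.11). The part of these lists was not tested.

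Setting the members against the mean of these markers changed which of them stood out. With the array mean of the 19 RPE markers as a covariate, Rpe65 was the 1 member called at 1 month and was lower in mutants (-0.70 ± 0.13, limma adjusted p = 0.0387), against 0.321% of all genes called. Rdh5 (0.21 ± 0.13), Rlbp1 (0.42 ± 0.12) and Ttr (0.33 ± 0.13) were not called in that fit. At 1 year no member was called with the covariate, against 0.436% of all genes, and Rpe65 was at -0.31 ± 0.11 (adjusted p = 0.363). With the covariate and slide together no member was called. Rpe65 was then at -0.51 ± 0.12 at 1 month (adjusted p = 0.187, 0.221% of all genes called) and at -0.44 ± 0.10 at 1 year (adjusted p = 0.153, 0.252% of all genes called). With age in wild types none of the 9 was called with the covariate, against 2.61% of all genes, nor with covariate and slide, against 1.17%. The covariate itself differed between the groups. At 1 month it ran from 2.12 to 2.45 in mutants and from 1.78 to 2.10 in wild types, without overlap. No mutant array of that age thus had the same marker mean as a wild-type array. In wild types the covariate ran from 2.19 to 2.41 at 1 year and from 1.78 to 2.10 at 1 month, again without overlap. The 1-month genotype values and the wild-type age values of these fits therefore rest on the fitted slope. They do not rest on arrays of equal mean. That mean holds the pigment genes Pmel, Tyrp1, Tyr, Mitf and Dct, which choroid melanocytes share, and levels of RPE and of melanocyte RNA in it were not separated.

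**Figure D4:**
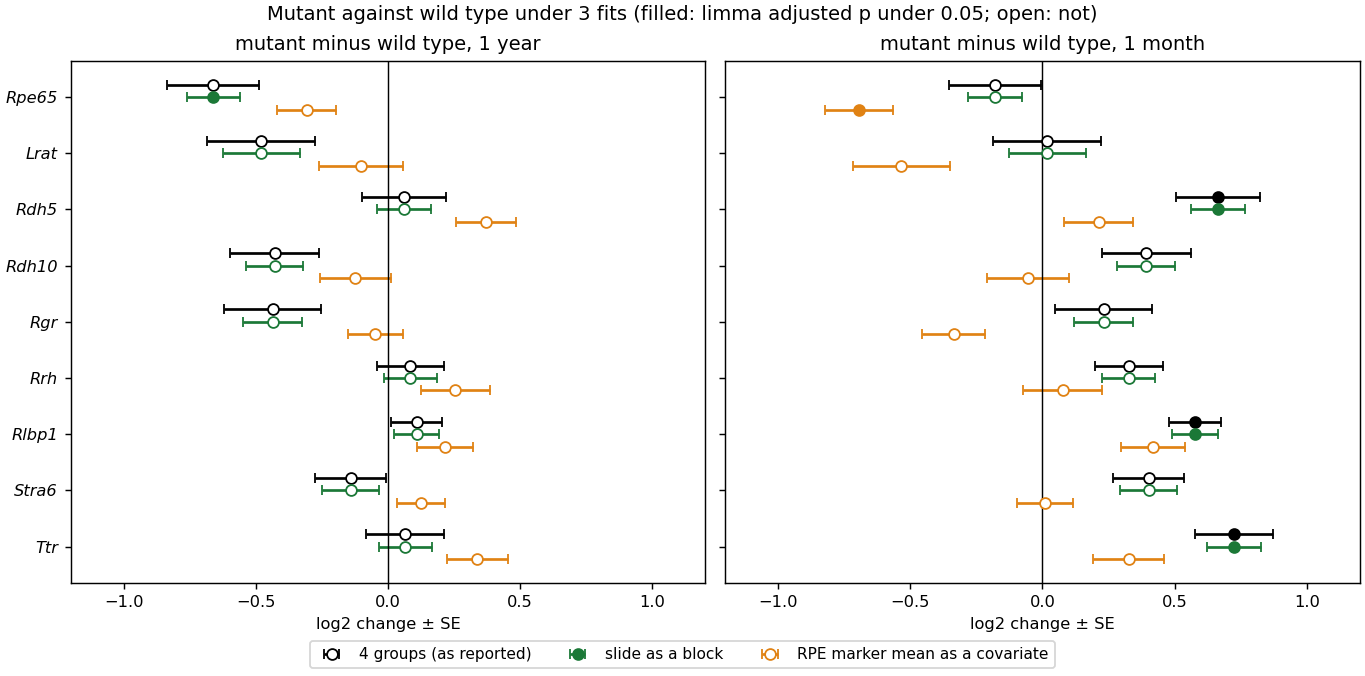
Log2 change ± SE of mutants against wild types (x axis) for each gene (y axis) at 1 year (left) and 1 month (right) under 3 limma fits, with filled points for adjusted p under 0.05. With slide as a block Rpe65 is called lower at 1 year, and with the RPE marker mean as a covariate it is called lower at 1 month while Rdh5, Rlbp1 and Ttr are no longer called.

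Within each array, each member was also set against the mean of the other 8 members. Probes differ in brightness, so the values carry meaning only as differences between arrays, and they are given as a description chosen after the levels were seen. For this measure no share of all genes with groups apart was computed. How unusual the separations given here are is therefore not known. Rpe65 had relative levels of 0.20, -0.08, 0.19 and 0.09 in 1-month mutants, against 0.64, 0.60, 0.82 and 0.73 in 1-month wild types. At 1 year it had 0.14, 0.16, 0.08 and 0.30 in mutants, against 0.60, 0.76, 0.71 and 0.69 in wild types. At both ages all mutant arrays were below all wild-type arrays, by 0.60 on average at 1 month and by 0.52 at 1 year. At 1 month the level of Rpe65 itself overlapped between genotypes (-0.18 ± 0.17), while the changes of the other 8 members were positive. The relative difference at that age thus does not stand for a lower level of Rpe65.

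Rdh5 had relative levels of 1.87 to 1.98 in 1-year mutants and 1.58 to 1.76 in 1-year wild types, and of 1.87 to 2.02 in 1-month mutants and 1.51 to 1.61 in 1-month wild types. Ttr had 3.86 to 4.00 in 1-year mutants and 3.47 to 3.77 in 1-year wild types, and 3.82 to 3.90 in 1-month mutants and 3.34 to 3.48 in 1-month wild types. For these 2 genes all mutant arrays were above all wild-type arrays at both ages. Lrat was lower throughout in mutants at 1 month (a difference of -0.37) and overlapped at 1 year (-0.31), and Rlbp1 was higher throughout at 1 month (0.26) and overlapped at 1 year (0.35). Rdh10 was lower throughout (-0.25) and Rrh higher throughout (0.32) in mutants at 1 year only, while Rgr and Stra6 overlapped at both ages. Since each gene is part of the mean the others are set against, the 9 results are not separate.

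**Figure D5:**
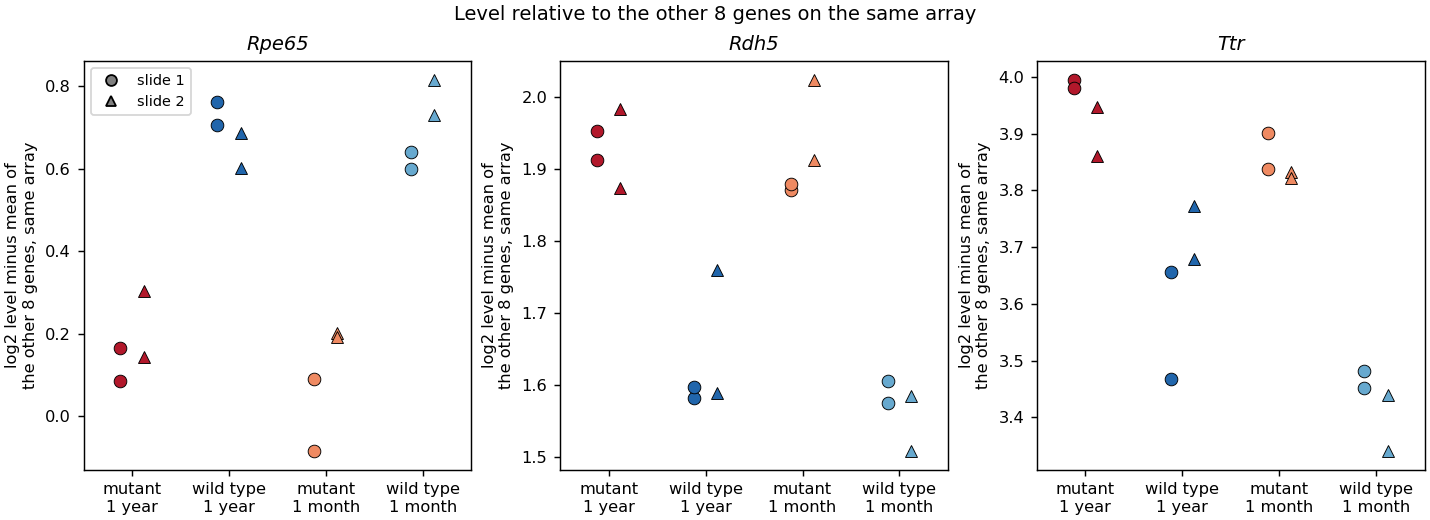
Level of Rpe65, Rdh5 and Ttr minus the mean level of the other 8 genes on the same array (y axis, log2, a separate range for each gene) in the 4 groups (x axis); circles are arrays on slide 1, triangles on slide 2. Mutants lie below wild types for Rpe65 and above them for Rdh5 and Ttr at both ages, with no overlap. For this measure no share over all genes was computed. The level of Rpe65 itself overlapped between genotypes at 1 month.

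Across the 16 arrays, which share the slide and group differences above, the levels of the members followed each other to different degrees. The closest pair was Rdh5 and Ttr (Pearson r = 0.97), and the least alike were Rpe65 and Rlbp1 (r = 0.08). Rpe65 was closest to Lrat (0.85) and Rgr (0.84), and its r was 0.27 with Rdh5 and 0.23 with Ttr. Of 17804 named genes outside the list, those most like Rpe65 were Selenop (0.87), a selenium carrier, Fmo1 (0.86) and Enpp2 (0.85), which encodes autotaxin. Among those most like Rdh5 were the transporter Flvcr2 (0.96) and Siglecf (0.94), and those most like Ttr were Flvcr2 (0.95), Siglecf (0.94) and Tmem98 (0.94).

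For Lrat the closest genes were the tight-junction gene Cldn1 (0.86), Enpp2 (0.85) and Abhd3 (0.84), and for Rdh10 Tlcd4 (0.92), the thyrotropin receptor Tshr (0.92) and the melanin enzyme Dct (0.89). For Rgr they were Dse (0.90), the melanosome gene Mlana (0.90) and Tlcd4 (0.88), and for Rrh Ndufs8 (0.94), Gnas (0.91) and Adra2c (0.91). For Rlbp1 they were Sulf1 (0.94), the collagen gene Col14a1 (0.94) and Pdia3 (0.94), and for Stra6 Tmem98 (0.95), Slc16a9 (0.94) and Bace2 (0.93). These correlations describe 16 arrays and were picked as the highest among all genes searched.

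The photoreceptor partners of the cycle were not called between genotypes at either age. Of the 10 genes of that list, 9 had negative changes at 1 year, with a median of -0.23, against a median of -0.03 and 5 negative changes at 1 month. Abca4, which moves retinal out of rod discs, changed by -0.34 ± 0.10 at 1 year (limma adjusted p = 0.128). All its mutant arrays were below all wild-type arrays, against 7.85% of all genes without overlap in either direction. The 10 rod markers moved likewise, with 9 negative changes at 1 year and a median of -0.25, against 2 and 0.08 at 1 month. Of them 1 was called lower in 1-year mutants, Gnat1, the rod transducin subunit (-0.33 ± 0.06, limma adjusted p = 0.0252). With age in mutants 3 of the 10 partner genes were called lower, Abca4 (-0.38 ± 0.10), the retinoid-binding matrix protein Rbp3 (-0.34 ± 0.08) and the cone opsin Opn1mw (-0.57 ± 0.13), and in wild types 1 of the 10, Opn1mw (-0.67 ± 0.13). Of the 10 rod markers, 5 were called lower with age in mutants and 0 in wild types.

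Of 17 other genes of retinoid uptake, storage and carriage, 1 was called higher in 1-month mutants, the retinol saturase Retsat (0.36 ± 0.08, limma adjusted p = 0.0356), and none at 1 year. Of these 17, 5 were higher at 1 year than at 1 month in wild types, among them the scavenger receptor Cd36 (1.52 ± 0.15), the Stra6-like receptor Stra6l (1.21 ± 0.31) and Retsat (0.44 ± 0.08), and the other two were Dhrs3 and Dhrs4. In mutants Cd36 (1.40 ± 0.15) and Stra6l (1.64 ± 0.31) were higher at 1 year and Scarb1 lower (-0.35 ± 0.09). Of 11 tested genes that make, degrade or bind retinoic acid, Aldh1a2, a retinaldehyde dehydrogenase, rose by 1.07 ± 0.16 in 1-month mutants (adjusted p = 0.00259) and by 1.05 ± 0.16 with age in wild types, where Cyp26a1, which degrades retinoic acid, rose too (0.67 ± 0.14). Its genotype effect at 1 year was -0.28 ± 0.16, and the difference of its effects was called (-1.35 ± 0.22, adjusted p = 0.018). None of the 6 retinoid receptors was called between genotypes at either age, with Rara at 0.20 ± 0.10 at 1 year and -0.08 ± 0.10 at 1 month. With age in wild types Rarb (0.79 ± 0.12) and Rarg (0.95 ± 0.30) were higher and Rara (-0.40 ± 0.10) and Rxrb (-0.23 ± 0.07) lower, and in mutants Rarb was higher (0.45 ± 0.12).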

How the data were processed

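RNA levels were read from 16 single-colour Agilent arrays, 4 per group. Fluorescence intensity was extracted and corrected for background in Agilent's Feature Extraction software (version 11.0.1.1 per the submitters' processing notes), and the scanner output was deposited. The authors also deposited a table of log2 values, which from its values is quantile normalized; it served as an alternative, matched through probe names. The probe design refers to mm9, per the file headers.

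From the processed intensity, log2 was taken, the array's 75th percentile was subtracted, spots marked as outliers were left out (93 to 136 per array) and spots of a probe were averaged. Probes well above background on at least 4 arrays were kept, without regard to group. Probes were named through RefSeq accessions, of which 28446 probes had no match, and the probe with the highest mean stood for a gene. One limma 3.58.1 model (R 4.3.3) with 4 group means was fitted over all 16 arrays and 19028 genes, with Benjamini-Hochberg adjustment and two-sided tests. Errors beside changes are standard errors. Nothing in the labels says which samples came from separate animals, so p-values measure the spread between samples. The number of arrays limits the precision.

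The members and lists were chosen with earlier results of these data known. Named are all 9 members; of each list the called genes, up to 6 per comparison by smallest adjusted p, or else its first gene, although called marker genes are given only for comparisons they stand beside and some are given as counts; and the 3 genes of highest Pearson r with each member, of which 1 is not reported here. Some markers that were not called are also named, picked for their change or for the separation of their groups. Same-numbered replicates did not pair: 2 of 16 correlations of their deviations were over 0.1. The fits were tested on simulated data. The scanner files used here hold median rather than mean pixel signals, so normexp (offset 50) ran on medians. Alternatives were other backgrounds, normalizations, filters, slide, array row, sex pattern, RPE marker mean and single arrays left out. Promoter sequences are from RefSeq, build GRCm38.p6.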

Additional observations from a re-analysis of the deposited data

Results flagged for a closer look

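Of the 36 sets of 4 arrays (9 genes in 4 groups), 1 had an array set apart from the other 3 by Dixon's criterion at the 95% level. Rgr on 1-year wild-type replicate 2 was at 4.02, against 4.52 on the nearest array, a gap of 0.847 of the range of the group. The same array was below its group mean for all 9 members. Chance sets apart about 1 in 20 such groups.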

How the results depend on the processing

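The count of members called in mutants at 1 month (3) was 0 with only the 2 groups compared, with a per-gene test of unshared variance, on slide 1 alone, on slide 2 alone and without the 3 arrays of unmatched sex, and 1 with the sex pattern as a covariate. The first 5 of these settings use fewer arrays or an unshared variance. It was 2 with every detected probe tested, since Rdh5 lost its call (adjusted p = 0.0737). With the RPE marker mean as a covariate it was 1, and with RPE mean and slide, a setting chosen after seeing the data like normexp on median signals, it was 0. For wild types with age (3) the count was 4 by normexp (Rdh5 added) and with probes well above background on all 16 arrays (Rgr added), 5 by quantile normalization, by the deposited log2 table and with a variance trend, 7 with slide as a block, 1 with only the 2 groups, by the per-gene test and on slide 2 alone, and 0 on slide 1 alone, with the RPE mean and with RPE mean and slide. Slide as a block gave 1 call at 1 year and 1 for the difference of effects. With single arrays left out the counts ran from 1 to 3 at 1 month and from 2 to 5 with age in wild types, and stayed at 0 to 0 in the other 3 comparisons. Shares over all genes are given above for the fits by slide, with the RPE mean and without the 3 arrays. With every detected probe tested, 529 of 49238 probes were called at 1 month. For the other settings no share is given, so their counts do not show whether the members moved apart from all genes.

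Signs turned for changes near 0 or under the RPE mean. With the RPE mean alone, the 1-month changes of Lrat, Rgr and Rdh10 were -0.53, -0.33 and -0.054, and Stra6 at 1 year was 0.13. The differences of effects were 0.43 for Lrat, 0.39 for Rpe65, 0.29 for Rgr, 0.18 for Rrh, 0.16 for Rdh5, 0.11 for Stra6 and 0.012 for Ttr. Age changes in wild types were -0.39 for Lrat, -0.25 for Rrh, -0.17 for Rpe65, -0.079 for Rgr, -0.044 for Rdh10 and -0.032 for Rdh5. In mutants they were 0.22 for Rpe65, 0.21 for Rgr, 0.18 for Ttr, 0.13 for Rdh5 and 0.037 for Lrat. With RPE mean and slide, 1-month changes were -0.35 for Lrat and -0.17 for Rgr, and Stra6 at 1 year was 0.10. Differences of effects were 0.12 for Lrat, 0.069 for Rpe65, 0.055 for Stra6 and 0.0085 for Rgr. Age changes were -0.18 for Lrat and -0.074 for Rrh in wild types, and 0.12 for Rgr, 0.12 for Rpe65, 0.10 for Ttr and 0.039 for Rdh5 in mutants. Lrat at 1 month was -0.073 with the sex pattern as a covariate and -0.046 by normexp. Stra6 with age in mutants was -0.022 with the sex covariate, -0.15 without the 3 arrays and -0.042 on slide 1. On slide 2, Rlbp1 with age in mutants was -0.022 and Rrh with age in wild types -0.027. The cause of these turns was not tested.

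With single arrays left out, signs turned for Lrat at 1 month (-0.13 to 0.18), Rdh5 (-0.041 to 0.15) and Ttr (-0.074 to 0.14) at 1 year, Rrh with age in wild types (-0.057 to 0.14), and with age in mutants for Rpe65 (-0.17 to 0.045), Rgr (-0.19 to 0.013), Rlbp1 (-0.062 to 0.046), Stra6 (-0.093 to 0.073) and Ttr (-0.094 to 0.032). With the replicate number as a replicate block, 2 members were called at 1 month, since Rdh5 lost its call (adjusted p = 0.0594), and 3 with age in wild types; the numbers did not pair the samples. Rpe65 at 1 year kept its sign in all 18 alternative fits (-0.79 to -0.31) and was called in 1.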
